A study of Mus musculus with 10 samples.

Results

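The matrix metalloproteases (MMPs), the ADAM and ADAMTS proteases and their tissue inhibitors (TIMPs) were examined in endothelial cells purified from mouse brain tumours after deletion of Sox7 or Sox17. Members were taken by symbol, as every gene named Mmp, Adam, Adamts or Timp with a number in all 10 count files, which gave 79 of 23238 symbols. They comprised 23 MMPs, 33 ADAMs, 19 ADAMTS proteases and 4 TIMPs. The tumours were orthotopic gliomas, made by injecting cells of a mouse glioma line (GL26l in the series' text) into the brain of C57BL/6 mice. Endothelial deletion used floxed Sox7 or Sox17 alleles and the Cdh5(BAC)-CreERT2 line, in which a tamoxifen-activated recombinase is driven by the regulatory region of VE-cadherin, and experimental mice received 20 mg/kg tamoxifen, per the series' design text. Libraries were 2 Sox7-deficient (ECKO in the labels) and 2 Sox7 control, and 3 Sox17-deficient and 3 Sox17 control, with separate controls for each arm. A deficient and a control library of the same number form a set. The labels do not state the alleles or the tamoxifen treatment of the controls, the age of the mice, how many mice entered a library, or whether libraries came from separate mice. Tamoxifen, recombinase activity and the deletion therefore cannot be told apart. Since the libraries may share mice, the p-values below reflect only how these particular samples vary, part of which could be technical.

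MMPs are zinc-dependent enzymes that cut collagens, laminins and other matrix proteins, and membrane-type MMPs do so at the cell surface. Catalytically active ADAMs are membrane-bound sheddases that release growth factors, receptors and adhesion molecules, and other ADAMs lack catalytic activity. ADAMTS proteases are secreted and act on proteoglycans, procollagens and von Willebrand factor. TIMPs bind and block the active enzymes. In growing vessels these proteins act on the basement membrane, on Notch and VEGF receptors and on VE-cadherin. SOX7 and SOX17, of the SoxF family of transcription factors, guide vessel formation.

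Values are counts of 3′ tags per transcript (Lexogen QuantSeq), given as CPM (counts-per-million), scaled to a common library size by TMM (trimmed mean of M-values). Since a transcript gives tags near its 3′ end whatever its length, CPM can be set side by side between genes. Total counts ran from 2082305 in Sox17 control 1 to 35068802 in Sox17-deficient 2, so that a floor of 3 counts corresponded to 1.36 and 0.0847 CPM in those libraries. Floors cover counting error only. The targeted Sox7 had 0.577 and 0.664 CPM in Sox7-deficient libraries 1 and 2, against 23.1 and 5.90 CPM in their controls (log2 fold change −4.52, SE 1.04), and the targeted Sox17 had 1.93, 1.07 and 6.70 CPM in Sox17-deficient libraries 1 to 3, against 174, 90.1 and 93.4 CPM in their controls (log2 fold change −5.24, SE 0.81). Each targeted transcript was lower in every library labelled deficient for it, although neither passed over all genes (edgeR quasi-likelihood test, Benjamini-Hochberg adjusted p = 1 and 0.226); with the replicate block Sox17 passed (−5.54, edgeR adjusted p = 0.000897). The floxed exons are not given, so whether the tags lie in the deleted part is unknown. The labelled cell type was checked by its markers: all 12 pan-endothelial markers had a count in every library, and their sum ran from 6655 to 9886 CPM in Sox7-deficient and from 10156 to 11670 CPM in Sox7 control libraries, and from 8013 to 13437 CPM in Sox17-deficient and from 10631 to 12881 CPM in Sox17 control libraries. Sox7-deficient 1 stood apart. The sum of 13 macrophage and microglia markers was 13306 CPM there, against 746 CPM in its control, and between 16.2 and 475 CPM in the other 8 libraries. In bulk samples fewer cells of a type and less RNA per cell cannot be told apart.

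Promoters of members whose values recur below are shown first. Sequences are RefSeq windows on GRCm38.p6 of 300 bases, 250 before to 50 after the annotated start, written 5′ to 3′ on the gene's strand with each CG pair in capitals. Adamts1, Adamts9 and Mmp15 are shown because their transcripts were lower in both Sox7-deficient libraries, and Mmp14 because it was higher in all 3 Sox17-deficient libraries. Mmp12 is shown as a contrast and was picked for its few CG pairs, so that difference was set by the choice. Mmp12 was low in most libraries but had 156 CPM in Sox7-deficient 1.
Adamts1, chr16:85803064-85803363, minus strand: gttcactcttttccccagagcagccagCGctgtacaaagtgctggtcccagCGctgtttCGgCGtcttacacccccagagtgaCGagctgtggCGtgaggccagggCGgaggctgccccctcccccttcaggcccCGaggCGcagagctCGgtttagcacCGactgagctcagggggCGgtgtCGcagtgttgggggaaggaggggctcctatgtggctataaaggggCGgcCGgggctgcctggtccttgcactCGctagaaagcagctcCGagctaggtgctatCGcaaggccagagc
Adamts9, chr6:92943485-92943784, minus strand: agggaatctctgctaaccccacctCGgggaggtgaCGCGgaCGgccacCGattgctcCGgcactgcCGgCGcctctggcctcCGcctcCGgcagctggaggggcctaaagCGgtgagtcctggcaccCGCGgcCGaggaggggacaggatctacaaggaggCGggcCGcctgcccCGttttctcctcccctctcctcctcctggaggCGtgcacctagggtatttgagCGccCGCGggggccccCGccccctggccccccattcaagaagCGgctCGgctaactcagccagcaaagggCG
Mmp15, chr8:95352046-95352345, plus strand: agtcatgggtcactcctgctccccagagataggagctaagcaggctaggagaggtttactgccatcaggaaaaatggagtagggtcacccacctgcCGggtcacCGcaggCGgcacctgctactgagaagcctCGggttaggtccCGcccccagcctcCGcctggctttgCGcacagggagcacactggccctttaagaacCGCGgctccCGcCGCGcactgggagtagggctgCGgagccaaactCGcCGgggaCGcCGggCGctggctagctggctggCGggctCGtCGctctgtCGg
Mmp14, chr14:54431348-54431647, plus strand: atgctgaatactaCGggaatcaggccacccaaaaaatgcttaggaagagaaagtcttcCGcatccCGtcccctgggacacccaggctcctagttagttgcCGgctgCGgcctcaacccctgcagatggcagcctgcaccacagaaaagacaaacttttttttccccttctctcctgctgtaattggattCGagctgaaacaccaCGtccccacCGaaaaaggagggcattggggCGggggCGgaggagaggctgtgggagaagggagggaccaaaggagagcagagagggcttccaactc
Mmp12 (second of its annotated starts), chr9:7347124-7347423, plus strand: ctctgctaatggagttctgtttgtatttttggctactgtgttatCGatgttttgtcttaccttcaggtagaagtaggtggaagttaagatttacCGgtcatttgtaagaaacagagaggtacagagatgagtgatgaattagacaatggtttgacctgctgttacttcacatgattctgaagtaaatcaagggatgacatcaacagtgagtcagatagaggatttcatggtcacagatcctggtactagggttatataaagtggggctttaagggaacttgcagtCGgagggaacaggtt
The Adamts1 window held 18 CG pairs, Adamts9 25, Mmp15 22 and Mmp14 10, against 3 in this Mmp12 window. A promoter entry was found for 49 of the 79 members. The median number of CG pairs was 25.0 for the 9 matched members counted in every library, 4.0 for the 29 counted in some and 2.0 for the 11 counted in none, beside 7.0 over 27025 genes. The sequence ACAAT, a core bound by SOX proteins, was searched on both strands (ATTGT on the other). It was absent from the Adamts1, Adamts9, Mmp15 and Mmp14 windows, and the Mmp12 window shown holds it once. The window of the first annotated Mmp12 start, at chr9:7344147-7344446, held no CG pair and ACAAT 2 times. Of the 54 windows of members 18 held it (33.3%), against 31.0% of all 32851 windows of this length. A match or its absence is a description of these letters only.

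Most of the family was rare or not counted in glioma endothelium. A count in every library was found for 13 members: Timp2 and Timp3, Mmp14 and Mmp15, Adam9, Adam10, Adam15 and Adam17, and Adamts1, Adamts5, Adamts8, Adamts9 and Adamts10. Another 48 members had a count in some libraries, and 18 had none in any (4 MMPs, 11 ADAMs and 3 ADAMTS proteases). Those 18 were Mmp7, Mmp10, Mmp23 and Mmp24, Adam1b, Adam5, Adam6a, Adam6b, Adam7, Adam18, Adam24, Adam25, Adam26a, Adam34 and Adam39, and Adamts3, Adamts19 and Adamts20. Many of these ADAMs are known from testis, and Mmp24 from neurons. The number of members with a count ranged from 18 in the shallow Sox17 control 1 to 55 in Sox17 control 3, so a 0 in a shallow library limits little. Across the 10 libraries 38 members had enough counts to be tested (12 MMPs, 9 ADAMs, 13 ADAMTS proteases and all 4 TIMPs), and 41 did not.

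The gelatinases Mmp2 and Mmp9, which cut the type IV collagen of basement membranes, were low. Mmp2 had more than 3 counts in 5 of 10 libraries and Mmp9 in 3. Mmp2 had 9.09 and 0 CPM in Sox7-deficient libraries 1 and 2, against 5.03 and 2.95 CPM in their controls. Mmp9 had 8.80 and 0 CPM in Sox7-deficient libraries 1 and 2, against 2.63 and 0 CPM in their controls. In the Sox17 arm Mmp2 reached at most 3.03 CPM, in Sox17-deficient 1, and Mmp9 was counted in Sox17 control 3 alone, at 1.42 CPM. Among the 23 members counted somewhere but not tested, the highest value in any library was 9.02 CPM (Mmp28) and the others stayed at or under 8.76 CPM.

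A few members carried most of the tags. Timp3, Adamts1 and Adam15 together made up 66.2% to 84.7% of all member CPM in 9 libraries and 35.9% in Sox7-deficient 1. Mmp14 gave 51.9% to 86.0% of MMP tags, Adam15 45.6% to 71.0% of ADAM tags, and Adamts1 78.8% to 92.1% of ADAMTS tags. Timp3 gave 87.9% to 96.4% of TIMP tags in 9 libraries and 32.6% in Sox7-deficient 1, the only library in which Timp2 was the highest of all members. By mean level over the 10 libraries the order was Timp3, Adamts1, Adam15, Mmp14, Adam17, Timp2, Adam10, Mmp15, Adamts9 and Adam9. Timp3 and Adamts1 exchanged places between libraries, so their order does not hold beyond the spread.

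**Figure D1:**
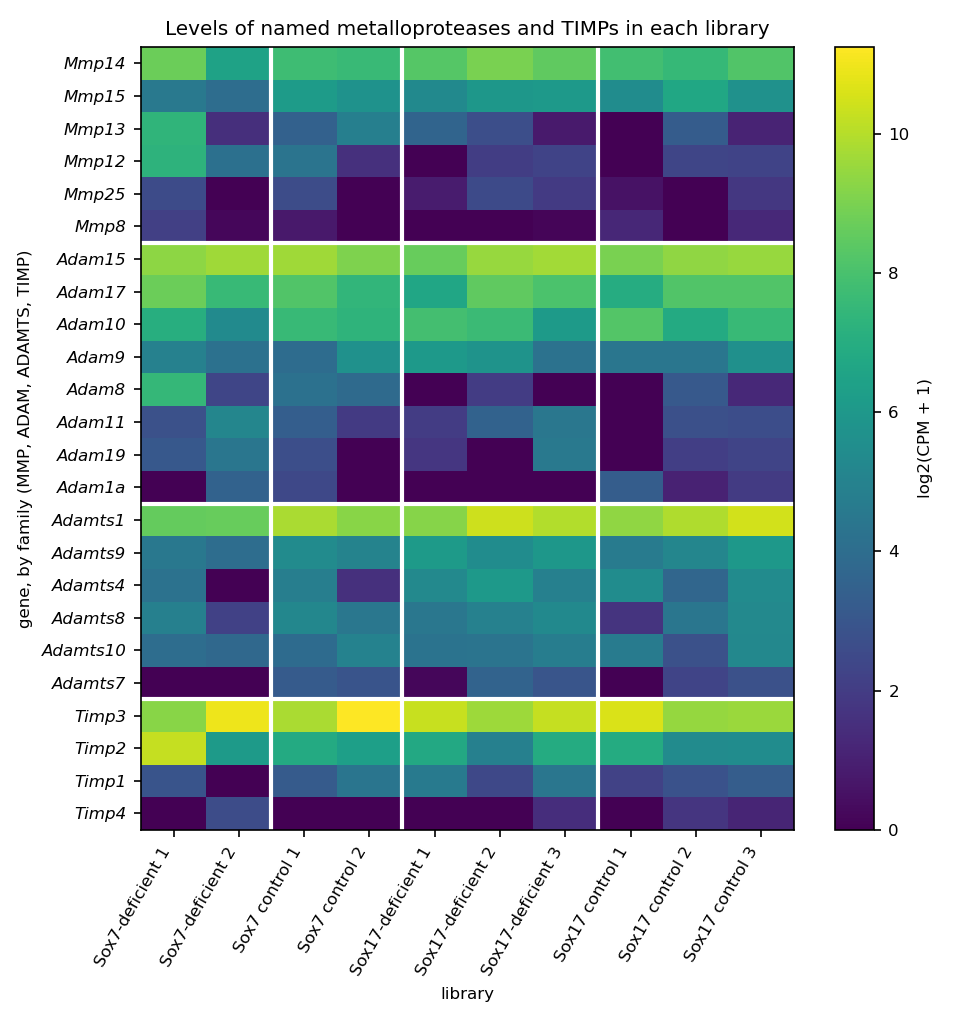
Level of the 24 named members (rows, by family) in each of the 10 libraries (columns, white lines between groups), coloured by log2(CPM + 1). Timp3, Adamts1 and Adam15 are bright across the columns, Timp2, Mmp12, Mmp13 and Adam8 are brightest in Sox7-deficient 1, and Adam1a is dark in all 3 Sox17-deficient libraries.

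The Sox7 comparison asked which transcripts differ in glioma endothelium labelled Sox7-deficient. No member passed the test: 0 of 38 tested members had an adjusted p under 0.05 (edgeR quasi-likelihood test, Benjamini-Hochberg), beside 0.0% of 13040 genes, and DESeq2 and limma-voom also called 0 members. At an unadjusted p under 0.05 there were 3 members, beside 1.5% of all genes: Mmp15 and Adamts7 lower (0.644% of all genes were) and Timp2 higher (0.851% of all genes were). With the replicate block, which pairs the sets, 5 members had an unadjusted edgeR p under 0.05 and none passed. They were Mmp15 (0.00583), Mmp12 (0.00938), Adamts1 (0.0257), Adam10 (0.0278) and Adamts7 (0.0433), whereas Timp2 was at 0.185. The share of all genes in that fit was not counted. The members' log2 fold changes were above 0 for 19 of 38, beside 51.9% of all genes, and their median was 0.05, beside 0.04 for all genes (0.07 for the members with groups at 0 placed at their bound). Of the secreted ADAMTS proteases, 10 of 13 tested members lay below 0 (median −0.94), and leaving out any 1 Sox7 library gave 7 to 10 below 0, fewest without Sox7 control 1. Of the MMPs, 8 of 12 tested members lay above 0 (median 1.03), but without Sox7-deficient 1 only 1 did and 11 lay below 0. With limma-voom and with the replicate block 6 of 12 MMPs lay above 0 (medians 0.09 and 0.06).

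Adamts1, Mmp15 and Adamts9, counted in all 10 libraries, were lower in both Sox7-deficient libraries than in either control. The sum of 12 pan-endothelial markers was also lower there, at 6655 and 9886 CPM, against 11670 and 10156 CPM in their controls. Of these markers 10 of 12 had a log2 fold change below 0 (median −0.42, beside 0.04 for all genes). In set 1 all 12 were lower in the deficient library. In set 2 Kdr, Tek, Flt1, Erg and Emcn were higher there and the other markers lower. The part of endothelial content in these members' values was not tested. Adamts1, which cleaves versican and aggrecan and restrains angiogenesis, lies on chromosome 16 (85793827 to 85803113, minus strand, GRCm38). Adamts1 had 385 and 400.0 CPM in Sox7-deficient libraries 1 and 2, against 902 and 601 CPM in their controls. The groups did not overlap: Sox7-deficient libraries averaged 392.5 ± 10.7 CPM and controls 752 ± 213 CPM (SD, n = 2 each). Its log2 fold change was −0.94 (SE 0.51), with an edgeR adjusted p of 1 and an unadjusted p of 0.0844. Both Sox7-deficient values also lay below all 6 libraries of the Sox17 arm, the lowest of which was 584 CPM.

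Mmp15, a membrane-type MMP, lies on chromosome 8 (95352268 to 95375080, plus strand). Mmp15 had 22.1 and 15.1 CPM in Sox7-deficient libraries 1 and 2, against 70.6 and 52.8 CPM in their controls. Every Sox7-deficient value was lower than every control value, with means of 18.6 ± 4.92 CPM in Sox7-deficient and 61.7 ± 12.6 CPM in control libraries (SD, n = 2 each). The log2 fold change was −1.73 (SE 0.61), the unadjusted edgeR p 0.0106 and the adjusted p 1. Differences per set, on the log2(CPM + 1) scale, were −1.63 and −1.74 in sets 1 and 2. Leaving out any 1 library left the log2 fold change between −2.06 and −1.48.

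Adamts9, a secreted proteoglycan-cleaving relative of Adamts1, lies on chromosome 6 (92772699 to 92943492, minus strand). Adamts9 had 21.4 and 15.3 CPM in Sox7-deficient libraries 1 and 2, against 42.5 and 32.0 CPM in their controls. Its groups did not overlap either, and the log2 fold change was −1.02 (SE 0.64) with an unadjusted edgeR p of 0.127 and an adjusted p of 1. Per set it differed by −0.96 and −1.02 on the log2(CPM + 1) scale. As shown above, the promoters of Adamts1, Adamts9 and Mmp15 held 18, 25 and 22 CG pairs, and none held ACAAT. The 9 matched members counted in every library had a median of 25.0 CG pairs, and 2 of those 9 held ACAAT.

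**Figure D2:**
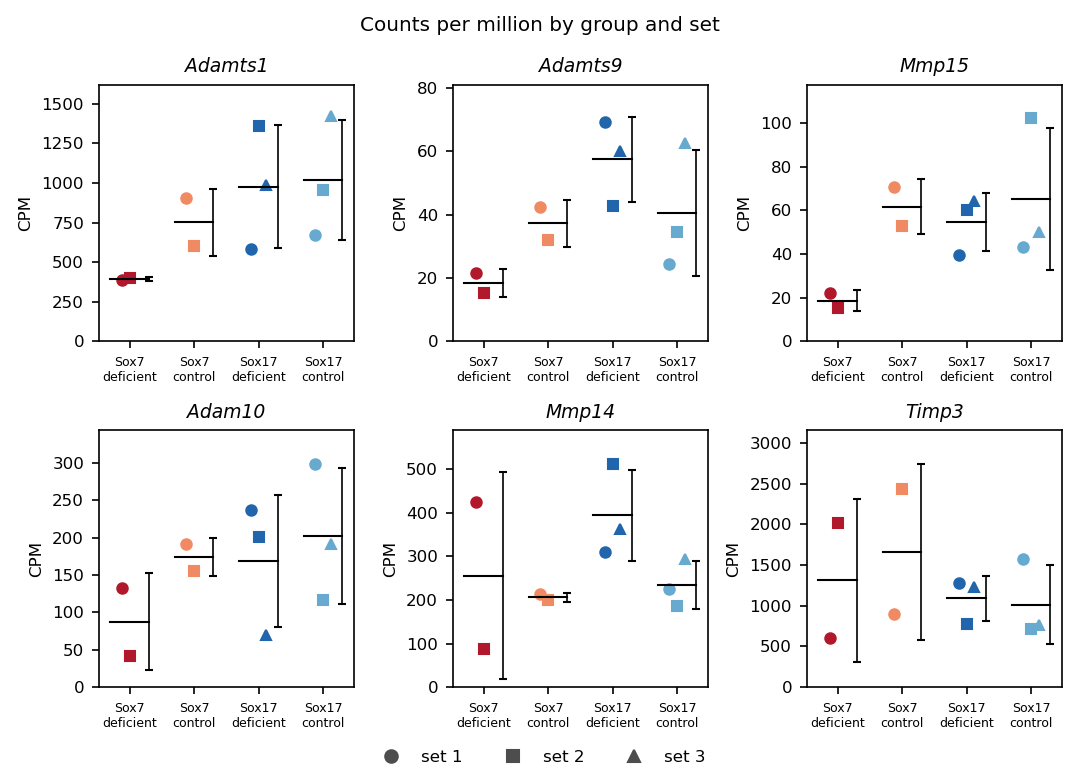
CPM of 6 members in each library, by group, with the mean (line) and SD (bar, n = 2 for Sox7 groups and 3 for Sox17 groups), the shape giving the set. Adamts1, Adamts9, Mmp15 and Adam10 are lower in both Sox7-deficient libraries than in both Sox7 controls, Mmp14 is higher in the 3 Sox17-deficient libraries than in the 3 Sox17 controls, and Timp3 overlaps in both arms.

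Of the other ADAMTS members, Adamts7, which cleaves cartilage oligomeric matrix protein, had no count in either Sox7-deficient library, against 69 and 71 counts in their controls. That is 0 and 0 CPM in Sox7-deficient libraries 1 and 2, against 8.26 and 6.54 CPM in their controls. Against a floor of 3 counts per library it was at least 17.8-fold lower in Sox7-deficient libraries (mean floor 0.415 CPM, control mean 7.40 CPM, edgeR unadjusted p = 0.0262, adjusted p = 1). The 3′ end of Adamts7 overlaps Tbc1d2b on the opposite strand, and since the strand setting of the counting is not given, its counts are uncertain. The aggrecanase Adamts4 had 18.0 and 0 CPM in Sox7-deficient libraries 1 and 2, against 27.2 and 1.94 CPM in their controls. Adamts8, which is known to restrain vessel growth, had 29.2 and 3.45 CPM in Sox7-deficient libraries 1 and 2, against 36.3 and 21.3 CPM in their controls. Both were lower than the control of their set in 2 of 2 sets, with overlapping groups. Adamts10, which acts on fibrillin microfibrils, had 15.4 and 13.1 CPM in Sox7-deficient libraries 1 and 2, against 14.2 and 31.1 CPM in their controls, with no common direction. Adamts5, another aggrecanase, had 4.76 and 9.42 CPM in Sox7-deficient libraries 1 and 2, against 7.06 and 0.277 CPM in their controls, and its sets differed in direction as well.

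Among the sheddases, Adam10, which cleaves Notch receptors and VE-cadherin, was lower in both Sox7-deficient libraries. Adam10 had 133 and 41.3 CPM in Sox7-deficient libraries 1 and 2, against 192 and 156 CPM in their controls. The groups did not overlap, and the log2 fold change was −1.0 (SE 0.63, edgeR unadjusted p = 0.132, adjusted p = 1). Its size rested on the second set: it was −0.39 without Sox7-deficient 2 and −2.10 without Sox7-deficient 1. Adam17, the enzyme that releases tumour necrosis factor, had 425.5 and 189 CPM in Sox7-deficient libraries 1 and 2, against 288 and 169 CPM in their controls, and its per-set differences were 0.56 and 0.16. Its log2 fold change of 0.42 (SE 0.6) was −0.31 without Sox7-deficient 1. Adam15, a disintegrin protease found on endothelium, had 654 and 808.5 CPM in Sox7-deficient libraries 1 and 2, against 797 and 535 CPM in their controls. It was lower than its control in set 1 and higher in set 2. Adam9, another membrane sheddase, had 29.3 and 17.4 CPM in Sox7-deficient libraries 1 and 2, against 14.8 and 50.6 CPM in their controls, again with opposite directions in the sets. The 3′ ends of Adam15 and Adam17 overlap genes on the other strand (4731419I09Rik and Iah1), so a part of their tags may belong to those.

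Adam12, a sheddase of growth factor precursors, had 2.45 and 3.19 CPM in Sox7-deficient libraries 1 and 2, against 4.91 and 8.48 CPM in their controls. The groups did not overlap at these low levels. Adam19 had 7.50 and 20.4 CPM in Sox7-deficient libraries 1 and 2, against 5.51 and 0 CPM in their controls and was the 1 tested member higher in both Sox7-deficient libraries than in both controls, beside 12.7% of all genes. Adam11, a relative without catalytic activity known from neurons, had 5.92 and 34.6 CPM in Sox7-deficient libraries 1 and 2, against 9.22 and 2.77 CPM in their controls, with opposite directions in the sets.

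The TIMPs did not share a direction. Timp3, which binds to the matrix and inhibits ADAM and ADAMTS proteases as well as MMPs, had 600.1 and 2020.1 CPM in Sox7-deficient libraries 1 and 2, against 896 and 2428 CPM in their controls. It varied more between sets than between groups: both set 2 libraries were above both set 1 libraries, and the log2 fold change was −0.34 (SE 0.62) with an edgeR adjusted p of 1. Timp1, a soluble inhibitor, had 6.64 and 0 CPM in Sox7-deficient libraries 1 and 2, against 8.26 and 20.0 CPM in their controls. Its groups did not overlap, yet the sets differed by −0.28 and −4.39, and the log2 fold change of −2.09 (SE 1.81) rested on the second set. Timp4 had 0 and 5.04 CPM in Sox7-deficient libraries 1 and 2, against 0 and 0 CPM in their controls, so it was counted in 1 of these 4 libraries. Timp1, Timp3 and Timp4 each lie within a synapsin gene on the opposite strand (Syn1, Syn3 and Syn2), and without the strand setting reads of the pairs cannot be told apart.

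Timp2, which inhibits MMPs and takes part in the activation of MMP2 by MMP14, was the highest member in Sox7-deficient 1. Timp2 had 1233 and 69.7 CPM in Sox7-deficient libraries 1 and 2, against 115 and 79.6 CPM in their controls. The excess was in 1 library: set 1 differed by 3.41 and set 2 by −0.19 on the log2(CPM + 1) scale. The log2 fold change was 2.74 (SE 1.19, edgeR unadjusted p = 0.0463, adjusted p = 1) and −0.51 without Sox7-deficient 1. With no filter on low counts Timp2 passed (2.71, edgeR adjusted p = 0.00134), and it did not pass in any other fit.

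Other members also had their highest value in Sox7-deficient 1, and they are placed together here after their values were seen. Adam8, known from leukocytes, had 176 and 4.11 CPM in Sox7-deficient libraries 1 and 2, against 17.5 and 13.6 CPM in their controls. Mmp13, the main interstitial collagenase of rodents, had 164 and 1.86 CPM in Sox7-deficient libraries 1 and 2, against 10.2 and 27.7 CPM in their controls. For both, set 1 was higher and set 2 lower in the deficient library. Mmp12, macrophage elastase, had 156 and 17 CPM in Sox7-deficient libraries 1 and 2, against 19.0 and 1.94 CPM in their controls; it was higher in 2 of 2 sets (by 2.97 and 2.62) and was the 1 tested member higher by at least 0.5 in both, beside 8.17% of all genes. Its log2 fold change of 3.04 (SE 1.73) did not pass (edgeR unadjusted p = 0.101, adjusted p = 1) and was 0.66 without Sox7-deficient 1. The 3′ end of Mmp12 overlaps Mmp1b on the opposite strand. Adam17 at 425.5 CPM, Mmp19 at 16.2 CPM, Mmp2 at 9.09 CPM, Mmp9 at 8.80 CPM and Mmp3 at 5.63 CPM also had their highest values of all 10 libraries in Sox7-deficient 1. Mmp8, the neutrophil collagenase, was low, with 3.32 and 0.133 CPM in Sox7-deficient libraries 1 and 2, against 0.718 and 0 CPM in their controls.

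The same library held the macrophage markers. Their sum was 13306 and 106 CPM in Sox7-deficient libraries 1 and 2, against 746 and 214 CPM in their controls, and Csf1r, the receptor for colony stimulating factor, had 587 and 7.83 CPM, against 28.7 and 7.01 CPM. All 13 markers had a log2 fold change above 0 and 1 of 13 had an unadjusted p under 0.05. Neutrophil markers summed to 26.7 and 1.06 CPM in Sox7-deficient libraries, against 46.2 and 16.1 CPM in their controls, and went both ways, with 2 of 5 tested markers above 0. S100a8 had 10.5 CPM in Sox7-deficient 1, against 30.9 CPM in its control, whereas Csf3r had 7.65 CPM, against 0.479 CPM, and Cxcr2 4.76 CPM, against 0.838 CPM. The part of these cells in the values of Timp2, Adam8, Mmp12 and Mmp13 was not tested.

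**Figure D3:**
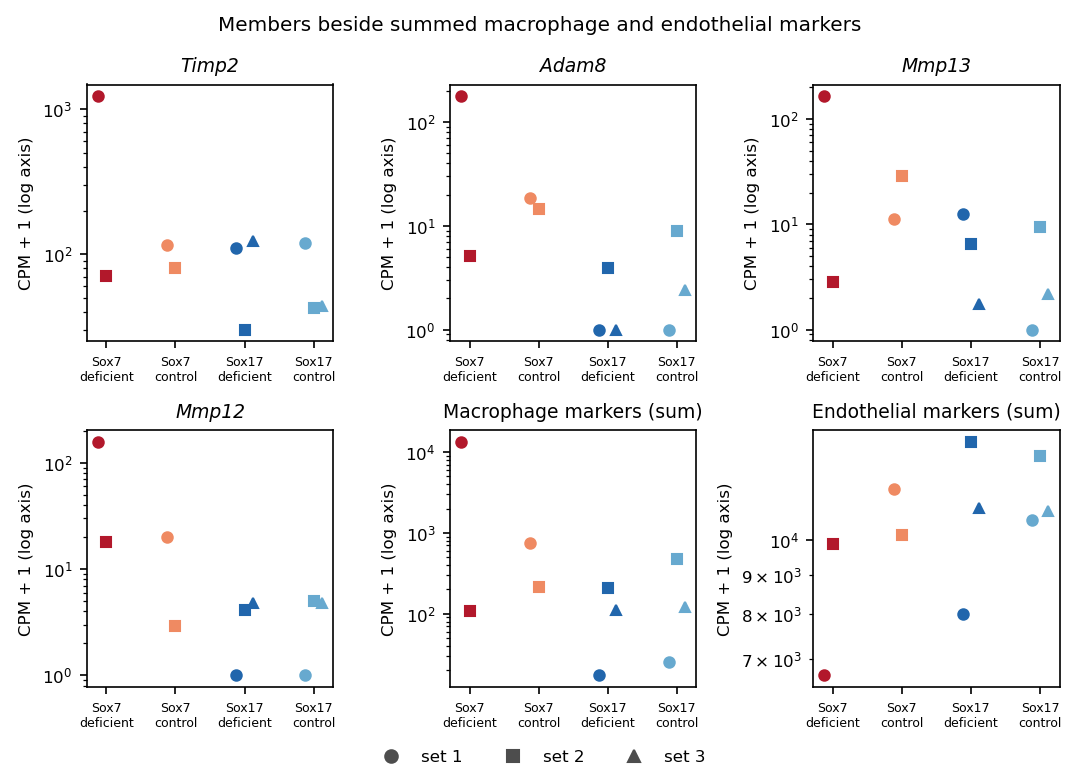
CPM + 1 on log axes for Timp2, Adam8, Mmp13 and Mmp12, beside the summed CPM of 13 macrophage and 12 endothelial markers, by group, the shape giving the set. Sox7-deficient 1 (left-most circle) is the highest point for the 4 members and the macrophage sum and the lowest for the endothelial sum.

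Mmp14, the membrane-type enzyme that activates MMP2 and cuts fibrillar collagen at the cell surface, had 424 and 88.1 CPM in Sox7-deficient libraries 1 and 2, against 213 and 199 CPM in their controls. The 2 deficient libraries lay on either side of the controls, and the log2 fold change of 0.31 (SE 0.57) was −1.25 without Sox7-deficient 1 and 1.04 without Sox7-deficient 2.

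Set by set, 7 of 38 tested members (18.4%) were lower by at least 0.5 on the log2(CPM + 1) scale in both Sox7 sets, beside 7.48% of all genes. They were Adamts1, Adamts4, Adamts7, Adamts9, Adam10, Adam12 and Mmp15. From set 2 alone the count was 17 (44.7%, beside 30.2% of all genes) and from set 1 alone 13 (34.2%, beside 24.9%), and with 5 CPM added before the logarithm in place of 1 it was 5 (13.2%, beside 4.86%). In 8 members (21.1%) both deficient libraries lay below both controls, beside 12.8% of all genes: Adamts1, Adamts2, Adamts7, Adamts9, Adam10, Adam12, Mmp15 and Timp1. Of these, Adamts2 had 0 and 0 tags in Sox7-deficient libraries 1 and 2, against 2 and 1 in their controls. All were under the floor of 3 counts, so Adamts2 has no direction. The numbers of 7 and 8 members describe the same pair of sets, and neither is a test.

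The Sox17 comparison asked the same of glioma endothelium labelled Sox17-deficient, with its own controls. Again 0 of 38 tested members passed (edgeR quasi-likelihood test, Benjamini-Hochberg), beside 0.0% of all genes, with DESeq2 and limma-voom also at 0. At an unadjusted p under 0.05 there was 1 member, Adam1a, lower, beside 3.52% of all genes (2.77% lower and 0.752% higher). With the replicate block there were 0 members, and Adam1a had an unadjusted edgeR p of 0.0569. The share of all genes in that fit was not counted. Log2 fold changes were above 0 for 26 of 38 members, beside 52.8% of all genes, with a median of 0.52 for the members, also with groups at 0 at their bound, and of 0.05 for all genes. Here 10 of 13 tested ADAMTS members lay above 0, and leaving out any 1 Sox17 library gave 8 to 11.

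Mmp14 was the 1 tested member whose 3 Sox17-deficient values all lay above all 3 controls, beside 4.13% of all genes. It lies on chromosome 14 (54431612 to 54445364, plus strand). Mmp14 had 309, 511 and 363 CPM in Sox17-deficient libraries 1 to 3, against 225, 185 and 293.5 CPM in their controls. The means were 394.5 ± 104.5 CPM in Sox17-deficient and 235 ± 54.8 CPM in control libraries (SD, n = 3 each), and every set was higher, by 0.46, 1.46 and 0.31 on the log2(CPM + 1) scale. The log2 fold change was 0.75 (SE 0.47), which did not pass (edgeR unadjusted p = 0.128, adjusted p = 1), and it stayed between 0.52 and 0.94 when any 1 library was left out. The sum of 7 pericyte markers was 193, 211 and 205 CPM in Sox17-deficient libraries, against 859.9, 639.8 and 246 CPM in their controls. All 7 had a log2 fold change below 0, and 1 had an unadjusted edgeR p under 0.05. The markers were not lower in every set: in set 3 Pdgfrb, Kcnj8, Abcc9 and Vtn were higher in the deficient library. Rgs5, Cspg4 and Anpep were lower in that set. The part of pericytes in the Mmp14 values was not tested.

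Adam1a, a fertilin subunit known from sperm, had no count in any Sox17-deficient library and 20, 14 and 47 counts in the controls. That is 0, 0 and 0 CPM in Sox17-deficient libraries 1 to 3, against 9.08, 1.11 and 2.91 CPM in their controls. Against the mean floor of 3 counts per library (0.290 CPM, control mean 4.36 CPM) it was at least 15.1-fold lower (edgeR unadjusted p = 0.0229, adjusted p = 1). The bound rested on Sox17 control 1, the shallowest library: without it the control mean was 2.01 CPM and the bound 6.93-fold. Adam1a was the 1 tested member lower by at least 0.5 in all 3 sets, beside 3.61% of all genes. Its 3 deficient values also lay below all 3 controls, beside 4.23% of all genes. Adam1a lies on chromosome 5 (121518576 to 121545482, minus strand) and overlaps Tmem116, Mapkapk5 and other genes, so its counts are uncertain. In the Sox7 arm it had 0 and 10.7 CPM in Sox7-deficient libraries 1 and 2, against 4.43 and 0 CPM in their controls, with no common direction.

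Adam11 was the 1 tested member higher by at least 0.5 in all 3 Sox17 sets, beside 3.2% of all genes. Adam11 had 3.03, 10.6 and 21.0 CPM in Sox17-deficient libraries 1 to 3, against 0, 5.77 and 5.39 CPM in their controls. Its groups overlapped, and the log2 fold change was 1.59 (SE 1.45) with an edgeR adjusted p of 1. Mmp25, a membrane-anchored MMP, had 0.825, 4.74 and 2.73 CPM in Sox17-deficient libraries 1 to 3, against 0.454, 0 and 2.54 CPM in their controls and was higher in 3 of 3 sets, with 6 counts against 1 in set 1. Adamts7 had 0.138, 11.1 and 6.82 CPM in Sox17-deficient libraries 1 to 3, against 0, 3.95 and 5.95 CPM in their controls. Adamts8 had 21.2, 29.5 and 39.6 CPM in Sox17-deficient libraries 1 to 3, against 2.27, 20.6 and 38.6 CPM in their controls. Adamts7 was higher in sets 2 and 3, while set 1 held 1 count against 0, both under the floor and so without a direction. Adamts8 was higher than the control in 3 of 3 sets. Groups overlapped for both, and the gap in Adamts8 was wide in set 1 alone, where the control rested on 5 counts.

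The abundant members overlapped between the Sox17 groups. Timp3 had 1279.7, 773 and 1225 CPM in Sox17-deficient libraries 1 to 3, against 1576, 709 and 757.5 CPM in their controls. Adamts1 had 584, 1358 and 989 CPM in Sox17-deficient libraries 1 to 3, against 671, 956 and 1423 CPM in their controls. Adam15 had 399.9, 732 and 812 CPM in Sox17-deficient libraries 1 to 3, against 499.6, 664 and 739 CPM in their controls. In each of these 3 the deficient libraries were higher in 1 or 2 sets and lower in the rest, and the log2 fold changes lay between −0.06 and 0.11 with SEs of 0.39 to 0.50. Adam17 had 101, 358 and 267 CPM in Sox17-deficient libraries 1 to 3, against 123, 295 and 296 CPM in their controls. Adam10 had 237, 201 and 69.7 CPM in Sox17-deficient libraries 1 to 3, against 299, 116 and 192 CPM in their controls. Mmp15 had 39.5, 60.2 and 64.1 CPM in Sox17-deficient libraries 1 to 3, against 43.1, 102.5 and 50.2 CPM in their controls. All 3 overlapped between the groups, and the Mmp15 log2 fold change was −0.26 (SE 0.48) with an edgeR adjusted p of 1.

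Adamts9 had 69.3, 42.8 and 60.2 CPM in Sox17-deficient libraries 1 to 3, against 24.5, 34.4 and 62.7 CPM in their controls. Adam9 had 64.0, 54.4 and 18.0 CPM in Sox17-deficient libraries 1 to 3, against 20.4, 20.1 and 49.7 CPM in their controls. Adamts4 had 37.8, 65.4 and 28.4 CPM in Sox17-deficient libraries 1 to 3, against 43.6, 12.0 and 42.4 CPM in their controls. All 3 averaged higher in Sox17-deficient libraries by log2 fold changes of 0.50 (SE 0.52), 0.59 (SE 0.65) and 0.43 (SE 1.31), with at least 1 set the other way. Adamts10 had 18.2, 18.9 and 26.6 CPM in Sox17-deficient libraries 1 to 3, against 24.5, 5.85 and 36.6 CPM in their controls. Adam19 had 2.48, 0 and 22.6 CPM in Sox17-deficient libraries 1 to 3, against 0, 3.24 and 3.90 CPM in their controls. Neither kept a direction over the sets.

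Timp2 had 109.5, 29.1 and 122 CPM in Sox17-deficient libraries 1 to 3, against 119, 41.6 and 43.0 CPM in their controls. Timp1 had 23.4, 4.43 and 20.6 CPM in Sox17-deficient libraries 1 to 3, against 3.63, 6.08 and 8.86 CPM in their controls. Timp4 had 0, 0 and 1.74 CPM in Sox17-deficient libraries 1 to 3, against 0, 2.29 and 1.24 CPM in their controls. The inhibitors other than Timp3 were thus higher in some sets and lower in others, and none had an edgeR adjusted p under 1. In the Sox17 arm the macrophage marker sum was 16.2, 206 and 111 CPM in deficient libraries, against 24.5, 475 and 119.5 CPM in their controls, and 12 of 13 markers lay below 0 (4 at an unadjusted p under 0.05). Adam8 had 0, 2.96 and 0 CPM in Sox17-deficient libraries 1 to 3, against 0, 7.90 and 1.42 CPM in their controls. Mmp12 had 0, 3.10 and 3.85 CPM in Sox17-deficient libraries 1 to 3, against 0, 4.03 and 3.84 CPM in their controls. Mmp13 had 11.4, 5.53 and 0.744 CPM in Sox17-deficient libraries 1 to 3, against 0, 8.53 and 1.18 CPM in their controls. Mmp8 was at 0, 0 and 0.124 CPM in Sox17-deficient libraries, against 1.36, 0 and 1.42 CPM in their controls, from at most 23 counts in a library.

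**Figure D4:**
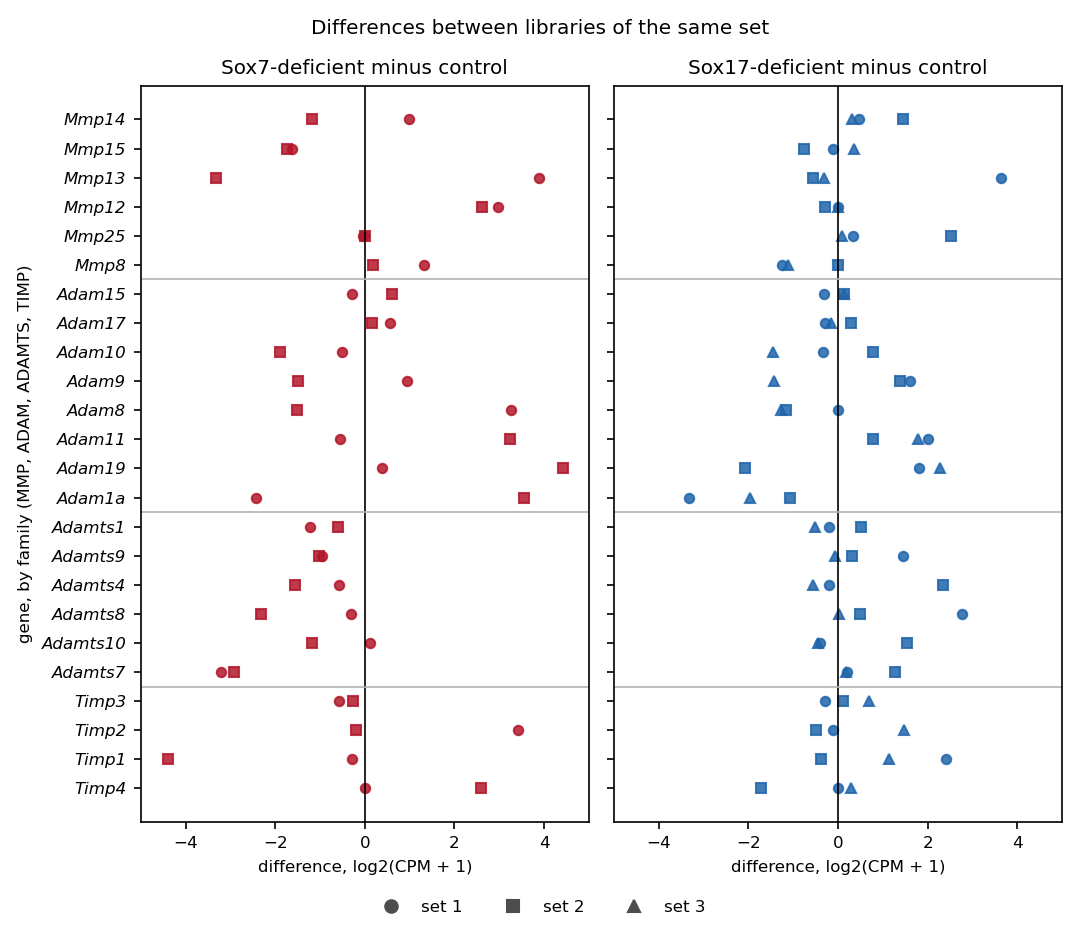
Difference between the deficient and the control library of each set, on the log2(CPM + 1) scale, for the 24 named members by family, with Sox7 sets on the left, Sox17 sets on the right and the shape giving the set. Adamts1, Adamts9, Mmp15 and Adam10 lie left of 0 in both Sox7 sets and on both sides of 0 in the Sox17 sets, and Mmp14 lies right of 0 in all Sox17 sets.

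The effects of both deletions were compared directly as the Sox7 effect minus the Sox17 effect. No member passed (0 of 38, edgeR quasi-likelihood test with Benjamini-Hochberg adjustment), beside 0.0% of all genes, and 3 members had an unadjusted p under 0.05, beside 2.87% of all genes. The difference was above 0 for Adam1a and Adamts6 (1.99% of all genes) and below 0 for Adamts7 (0.874% of all genes). Adamts6 was counted in 3 libraries only, with 10 counts in Sox7-deficient 1 and 28 and 6 in Sox17 controls 2 and 3. Its fitted difference of 12.45 came from groups at 0 and is no bound. For Mmp15 the difference was −1.47 on the log2 scale (SE 0.77, edgeR unadjusted p = 0.0708, adjusted p = 1), for Adamts9 −1.52 (SE 0.82, edgeR unadjusted p = 0.0807, adjusted p = 1), and for Mmp14 −0.44 (SE 0.74). With the replicate block 3 members had an unadjusted edgeR p under 0.05 and none passed: Mmp12 (0.0353), Mmp15 (0.0426) and Adamts7 (0.0468). The share of all genes in that fit was not counted. The lower Adamts9 and Mmp15 values in the Sox7 arm were therefore not shown to differ from those of the Sox17 arm. No member was higher, or lower, by at least 0.5 in all 5 sets, beside 0.253% and 0.414% of all genes, nor by any amount, beside 3.32% and 3.34%.

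Genes that work with the family were read from the same fit. Of 21 regulators of metalloproteases (the surface inhibitor Reck, the inducer Bsg, tetraspanins and iRhoms that guide ADAM10 and ADAM17, proprotein convertases, A2m and ADAMTS-like proteins) 14 were tested, and none had an unadjusted p under 0.05 in either comparison. Of 8 genes of the plasminogen activator system, whose plasmin activates pro-MMPs, 6 were tested. Plat, the tissue-type activator released by endothelium, was lower by at least 0.5 on the log2(CPM + 1) scale in all 5 sets. Of all genes 0.414% were so, and 3.34% were lower in all 5 sets by any amount. Plat had 191 and 296 CPM in Sox7-deficient libraries 1 and 2, against 440.3 and 556 CPM in their controls. In the other arm it had 290.5, 308 and 256 CPM in Sox17-deficient libraries 1 to 3, against 554.5, 656 and 496 CPM in their controls. The groups did not overlap in either arm, as for 12.8% of all genes lower in the Sox7 arm and 4.23% in the Sox17 arm. Log2 fold changes were −1.03 (SE 0.45) in the Sox7 and −1.0 (SE 0.36) in the Sox17 comparison. Neither passed (edgeR unadjusted p = 0.0328 and 0.0135, adjusted p = 1 for both), nor did any alternative fit call it, the lowest adjusted p being 0.28 (DESeq2, Sox17). Plgrkt, the plasminogen receptor, was higher in the Sox7 comparison (1.91, SE 0.83, edgeR unadjusted p = 0.0336, adjusted p = 1). It had 50.5 and 54.3 CPM in Sox7-deficient libraries 1 and 2, against 23.5 and 4.42 CPM in their controls. In the Sox17 arm Plgrkt went the other way and was lower in every set (log2 fold change −0.88, SE 0.66, edgeR unadjusted p = 0.201).

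The cathepsins are lysosomal proteases that also cut matrix. All 8 tested cathepsins had a log2 fold change above 0 in the Sox7 comparison (median 2.07, beside 0.04 over all genes), 4 of them at an unadjusted p under 0.05 (Ctsb 1.81, Ctsd 2.11, Ctsh 1.24 and Ctsz 2.49) and none at an adjusted p under 0.05 (edgeR). Their sum was 9836 and 790 CPM in Sox7-deficient libraries 1 and 2, against 1007 and 1142 CPM in their controls, with the highest sum in Sox7-deficient 1. All 8 were higher in set 1, and in set 2 Ctsd, Ctsh and Ctsk were higher and the other 5 lower. Ctsh had 175 and 128 CPM in Sox7-deficient libraries 1 and 2, against 76.3 and 52.4 CPM in their controls. In the Sox17 comparison none of the 8 had an unadjusted p under 0.05, with sums of 925, 873 and 648 CPM in Sox17-deficient libraries, against 649, 882 and 648 CPM in their controls.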

How the data were processed

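The authors deposited raw counts, whole numbers for each gene symbol, in 1 file per library. Libraries were made with the Lexogen QuantSeq kit from 500 ng of Trizol-extracted RNA, per the labels' protocols, which mention no molecular identifiers. Per the submitters' processing notes, Bowtie2, edgeR and mouse build mm10 were used; roles and versions are not stated. The counting tool, its strand setting and the annotation are not given in the sources used here. Repeated symbols were summed, 1183 symbols starting with Mir found in the Sox17 files only were left out, and the ribosomal precursor Rn45s (3.932% to 28.834% of counts) was kept.

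Tests on the counts used edgeR 4.0.16 in R 4.3.3 (TMM scaling, filterByExpr, robust quasi-likelihood fit of 4 group means over 10 libraries, 6 residual degrees of freedom, common biological coefficient of variation 0.989). Of 23238 symbols 13040 were tested. P-values were adjusted over all of them by Benjamini and Hochberg with a threshold of 0.05. The SE of a log2 fold change is its size divided by the square root of F. CPM uses TMM-scaled library sizes, and set differences use log2(CPM + 1). The fit was tested on simulated data with known changes and a smaller spread than in these data. That test therefore does not show what the fit could find here. Library correlations within groups were 0.765 to 0.92.

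A shared code in the sample descriptions ties the libraries of 4 of the 5 sets, and Sox17 set 1 has none, so set numbers were treated as pairs. Paired libraries' deviations from their group means correlated at 0.193 in the Sox7 arm, which has 1 value for both sets, and at 0.12, 0.091 and 0.09 in Sox17 sets 1 to 3. Alternatives were other size factors (RLE), no filter on low counts, DESeq2 1.42.0, limma-voom (limma 3.58.1), the replicate block, only 1 arm's libraries, no Rn45s, leaving out each library, and, chosen after seeing the data, leaving out each set and adding 5 CPM in the set differences.

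Named members were the TIMPs, tested members averaging at least 20 CPM, in each comparison up to 5 higher and 5 lower by smallest p among those with every set in 1 direction, and any called in a fit, which gave 24. Adamts2, Adamts5, Adamts6, Adam12, Mmp2, Mmp3, Mmp9, Mmp19, Adam32 and Mmp28 were named after their values were seen. The members and lists were chosen with earlier results of these data known. Gene positions follow GENCODE vM21 (GRCm38, which is mm10).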

Additional observations from a re-analysis of the deposited data

Results flagged for a closer look

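Adamts8 was lower than the control in both Sox7 sets and higher than the control in all 3 Sox17 sets. In Sox17 set 3 it was almost level (39.6 against 38.6 CPM), and its control in Sox17 set 1 rested on 5 counts. Adamts7 was lower than the control in both Sox7 sets and higher in Sox17 sets 2 and 3, and its Sox17 set 1 (1 count against 0, both under the floor of 3 counts) has no direction. For Adamts7 the Sox7 effect minus the Sox17 effect was −10.26 on the log2 scale (edgeR unadjusted p = 0.028, adjusted p = 1). That fitted value is no bound, since Adamts7 had 0 counts in both Sox7-deficient libraries. For Adamts8 it was −1.36 (edgeR unadjusted p = 0.339, adjusted p = 1). The opposite directions are therefore a description, and a difference between the arms was not shown for either gene.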

How the results depend on the processing

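No member passed under any alternative, in either comparison or in the difference between them, except Timp2 in the Sox7 comparison without the filter on low counts, and the replicate block changed no member's call. Of 813 log2 fold changes of named members under 17 alternatives, 758 kept direction and side of the threshold, 54 changed sign and 1 gained a call. The cause was not tested for any of them. Sox17 in its own comparison passed without the filter (−5.24), with DESeq2 (−5.27) and with the replicate block (−5.54), and Sox7 passed without the filter (−4.54). With 1 library left out Sox17 ran from −6.36 to −4.78 and passed in 3 of 10 such fits (without Sox7-deficient 1, Sox7-deficient 2 or Sox17-deficient 3). The members' median in the Sox7 comparison was 0.00 without the filter, −0.19 with limma-voom, −0.19 with the replicate block, −0.22 with only that arm's libraries, and −1.35 (without Sox7-deficient 1) to 1.19 (without Sox7 control 1) with 1 library left out. In the Sox17 comparison it was 0.00 without the filter, 0.25 with limma-voom and 0.29 (without Sox17-deficient 3) to 0.94 (without Sox17 control 3) with 1 library left out.

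Members lower by at least 0.5 in every Sox7 set numbered 17 without set 1 and 13 without set 2, and members higher 8 and 14. In the Sox17 arm members higher in every set numbered 2 to 5 and members lower 1 to 2 with 1 set left out, and with 5 CPM added 0 were lower. Fewer sets make the criterion easier to meet.

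Sign changes with limma-voom were Adam15 (−0.03), Adam17 (−0.12), Adamts10 (0.26) and Adam19 (−1.71) in the Sox17 comparison and Mmp14 (−0.10), Mmp13 (−0.20) and Mmp25 (0.27) in the Sox7 comparison. With the replicate block they were Adam15 (−0.01), Adam17 (−0.05) and Adamts10 (0.24) in the Sox17 comparison and Mmp14 (−0.09) in the Sox7 comparison. With 1 library left out, log2 fold changes of the Sox7 comparison ran from −1.47 to 0.54 for Timp3, −0.13 to 0.43 for Adam15, −1.25 to 1.04 for Mmp14, −0.31 to 0.89 for Adam17, −0.51 to 3.66 for Timp2, −1.14 to 0.65 for Adam9, −10.45 to 2.18 for Adamts4, −3.09 to 0.02 for Adamts8, −3.36 to 3.12 for Mmp13, −1.94 to 3.5 for Adam8, −1.14 to 0.00 for Adamts10, −0.02 to 2.85 for Adam11, −7.74 to 8.97 for Adam1a, −7.92 to 7.82 for Mmp25, 0.00 to 8.89 for Timp4 and −1.39 to 7.32 for Mmp8. Those of the Sox17 comparison ran from −0.10 to 0.56 for Timp3, −0.37 to 0.26 for Adamts1, −0.16 to 0.28 for Adam15, −0.37 to 0.38 for Adam17, −0.58 to 0.12 for Adam10, −0.49 to 0.22 for Mmp15, −0.10 to 2.92 for Mmp13, −7.88 to 0.27 for Adam8, −0.77 to 0.29 for Mmp12, −0.54 to 0.50 for Adamts10 and −1.0 to 2.35 for Adam19. Values beyond 7 in size come from fits with a group at 0 and are no bounds. With 2 or 3 libraries per group and a common biological coefficient of variation of 0.989, a difference within the SEs given was not detectable. Differences of several SEs could also fail to pass: the targeted Sox17, at −5.24 (SE 0.81), had an edgeR adjusted p of 0.226. In Sox17 control 1 a member under 1.36 CPM was below the floor of 3 counts.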

Other observations

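A pair of members outside the tested ones came almost wholly from 1 library. Of 69 counts of Adam32, a relative of the testis ADAMs, 66 were in Sox7-deficient 2, and of 72 counts of Mmp28, known as epilysin, 68 were in the same library. Each had a count in 2 libraries.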
